A study of Mus musculus with 20 samples.

Results

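Imprinted genes with known roles in growth were followed in lung metastases and primary tumours of a breast cancer (BC) mouse model. The 10 genes were taken by symbol and were H19, Igf2, Igf2r, Peg3, Mest, Dlk1, Cdkn1c, Plagl1, Meg3 and Grb10. Of these, 9 were matched to a row with values in the BC libraries, among 15465 such rows, and Dlk1 was not analysed here. A gene entered the test with a deposited value of at least 1 in at least 4 of the 8 BC libraries, which kept 8 of the 10 genes, among 14003 genes tested; Igf2 reached a value of 1 in 3 libraries and was not tested. The samples were bulk tissue, 4 lung metastases and 4 primary tumours, collected 28 days into the model. A metastasis and a primary tumour with the same number in their titles were taken as 1 mouse, which gave 4 mice. All tumours derived from 4T1, a mouse mammary carcinoma cell line that spreads to the lung when grown in the mammary fat pad; the labels called the model orthotopic, gave the genotype only as this line, named no treatment in either group and did not give the strain of the host mice. All 4 mice therefore shared 1 source of tumour cells, while the stroma and, in the metastases, the surrounding lung came from the host.

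An imprinted gene is transcribed mainly from the copy inherited from 1 parent, under DNA methylation set in the germ line. Many paternally expressed genes promote growth of the embryo and placenta and many maternally expressed genes restrain it, and most of them are expressed at much lower levels in adult tissues. The Igf2 growth factor, its clearance receptor Igf2r, the neighbouring RNA H19 and the receptor-signalling adaptor Grb10 act around the same pathway, insulin-like growth factor (IGF) signalling. The values below are totals per gene and do not tell the parental copies apart.

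In the lung metastases, 2 of the 8 tested genes rose and 0 fell. The genes that rose were Cdkn1c, an inhibitor of cyclin-dependent kinases, 13.1-fold by the group means, and Grb10, an adaptor that dampens insulin and IGF1 receptor signalling, 2.21-fold. Over all tested genes, 9.13% were called in either direction, 7.18% higher and 1.96% lower in the metastases. The test was limma on log2(value + 1) with Benjamini-Hochberg adjustment over all tested genes and a threshold of 0.05 on the adjusted p; log2 changes below are on this scale, lung metastasis over primary tumour, and understate the change of low genes. At an unadjusted p under 0.05, 3 of the 8 genes were higher and 1, Mest, was lower. The share of all tested genes past that unadjusted threshold is not given here. This count and the unadjusted counts of the lists below therefore have no background to be read against. Both edgeR and DESeq2 on the recovered reads called these 2 genes and 0 lower ones. Over all tested genes edgeR called 1050 and DESeq2 1985, against 1279 with limma. With 1 library or 1 mouse left out, Cdkn1c was called each time and Grb10 was not always, as given below. The median log2 change was 0.12 over the 8 genes and -0.06 over all genes tested. In 3 of the 8 genes, Cdkn1c, Grb10 and Plagl1, the metastases lay wholly above the primary tumours, where 10.4% of all tested genes did so, 7.56% lay wholly below, and 17.9% did not overlap in either direction.

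**Figure D1:**
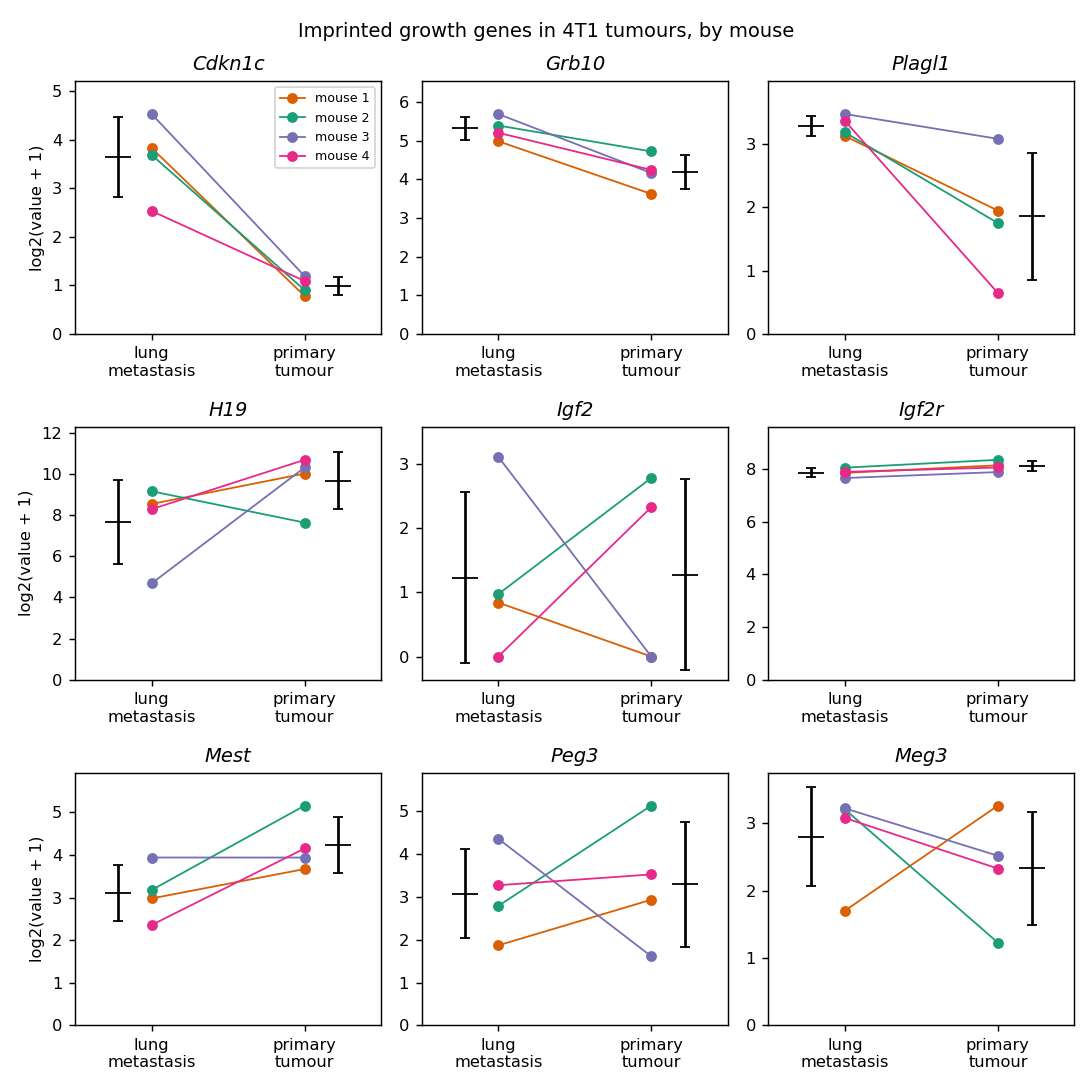
Level of each of the 9 genes with BC values, as log2(deposited value + 1) (vertical axis), in each library, with the lung metastases on the left and the primary tumours on the right of each panel; lines join the libraries of 1 mouse and black bars give the mean and SD of each group (n = 4). All 4 mice had more Cdkn1c, Grb10 and Plagl1 and slightly less Igf2r in the metastasis, and the mice differed in direction for H19, Igf2, Peg3 and Meg3.

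The libraries held 15447918 reads in lung metastasis 3 and 24459226 to 28995834 in the other 7. Markers of tumour and mammary epithelium were read in all libraries, with a summed value of 1060 to 3438 in lung metastases against 1590 to 2882 in primary tumours; the lowest of each group were lung metastasis 3 and primary tumour 2. The lung samples held RNA of lung epithelium: 13 of 15 lung epithelium markers rose, with sums of 7847 to 36401 in lung metastases against 107 to 133 in primary tumours, and no marker was at 0 in every library of a group. Neutrophil markers rose in 8 of 9 cases, mesothelium markers in 8 of 8, erythroid markers in 5 of 5 and endothelium markers in 5 of 10. Of 12 fibroblast and matrix markers 1 rose and 4 fell, and of 10 pericyte and smooth muscle markers 2 rose and 2 fell. Of 10 tumour and mammary epithelium markers 1 rose and 1 fell. Krt19 rose, with a mean of 123 in lung metastases and 14.1 in primary tumours. Cldn4 fell, with 20.1 in lung metastases and 114 in primary tumours. The sums of this list do not tell tumour epithelium from lung epithelium in the lung samples. Of 8 tested macrophage markers 0 rose and 1 fell, and all 8 had negative log2 changes. Adipocyte markers rose in 0 and fell in 1 of 6, and 0 of 3 skeletal muscle markers changed. In bulk samples, fewer cells of a type and less RNA per cell cannot be told apart, and the share of each change that came from lung tissue was not tested.

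**Figure D2:**
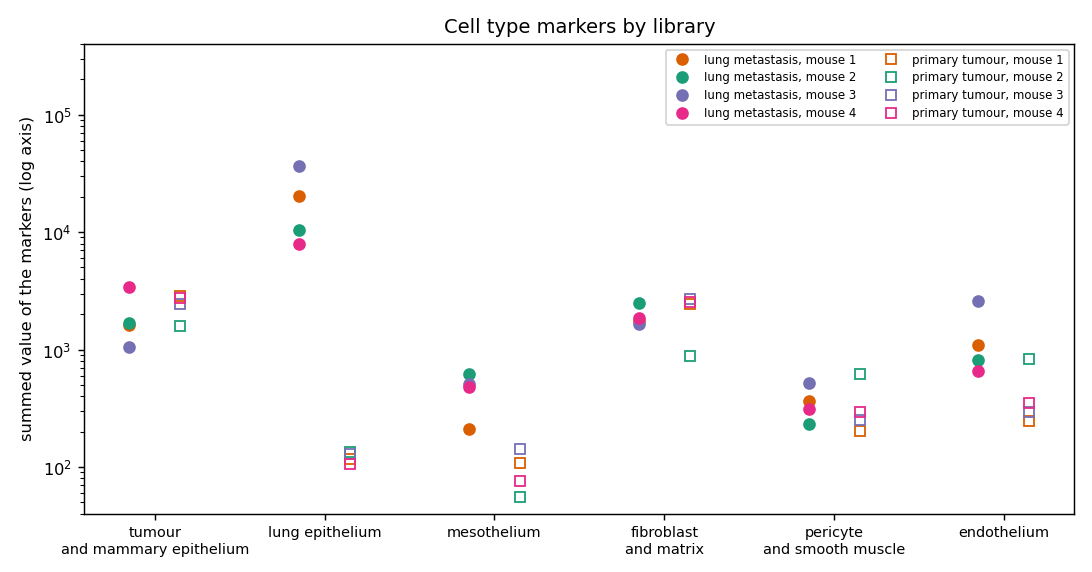
Summed deposited value of each of 6 marker lists (vertical axis, log scale) in each library, with lung metastases as filled circles left of primary tumours as open squares. Lung epithelium markers lay between 7847 and 36401 for the 4 lung metastases and between 107 and 133 for the 4 primary tumours, while tumour and mammary epithelium markers overlapped between the groups.

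Among the inhibitors of growth, Cdkn1c encodes p57Kip2, a maternally expressed inhibitor of cyclin-dependent kinases that holds cells out of the division cycle. Its values were 13.2, 11.9, 22.2 and 4.79 in lung metastases 1 to 4, against 0.715, 0.868, 1.28 and 1.13 in primary tumours 1 to 4, from 335, 335, 328 and 114 reads and from 18, 22, 38 and 32 reads. Every metastasis exceeded every primary tumour, and the lowest metastasis stood at 4.79 where the highest primary tumour stood at 1.28. The mean was 13.03 ± 7.14 in lung metastases and 0.998 ± 0.254 in primary tumours (SD, n = 4 each), a log2 change of 2.66 (SE 0.40, limma adjusted p = 0.00246). Within mice 1 to 4 the log2 difference was 3.05, 2.79, 3.34 and 1.44. Since the groups did not overlap, any pairing of the libraries would give the same sign in all 4 mice. This also holds for Grb10 and Plagl1. Among the 4 metastases, Cdkn1c ran in the same order as the lung epithelium markers, whose sums were 20261, 10449, 36401 and 7847. The endothelium markers also ran in that order, with sums of 1087.5, 817, 2590 and 656, and the sums of the other marker lists did not. In primary tumours 1 to 4 Cdkn1c followed the order of neither list. There the lung epithelium sums were 118, 133, 129 and 107, and the endothelium sums 248, 832, 294 and 349. Whether lung tissue or any of these cells carried the difference was not tested. The call held in every alternative run; its size depended on the scale, with a log2 change of 1.5 at a pseudocount of 5 and 3.72 in edgeR. An antisense transcript, Gm44732, overlaps Cdkn1c by gene span, introns included. The library kit was not described as marking strand, so reads from any stretch they share cannot be told apart. Whether their exons overlap was not checked.

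Neighbours of Cdkn1c in its imprinted domain did not move with it past the test. Phlda2, a maternally expressed gene that limits placental growth, averaged 5.86 ± 3.06 in lung metastases and 11.3 ± 7.29 in primary tumours (SD, n = 4 each; log2 change -0.85, limma adjusted p = 0.318). The potassium channel gene Kcnq1 averaged 6.57 ± 6.42 in lung metastases and 3.60 ± 2.43 in primary tumours (SD, n = 4 each; log2 change 0.52, limma adjusted p = 0.636). The transporter gene Slc22a18 averaged 5.71 ± 4.47 in lung metastases and 5.72 ± 2.51 in primary tumours (SD, n = 4 each; limma adjusted p = 0.835). These 3 genes are given for their place beside Cdkn1c and were picked after their values were seen.

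Grb10 is imprinted in opposite ways by tissue: the maternal copy is used in most tissues and the paternal one in neurons of the brain, from separate promoters. Its values were 30.6, 40.9, 50.5 and 35.8 in lung metastases 1 to 4, against 11.3, 25.3, 16.9 and 17.9 in primary tumours 1 to 4. The groups did not overlap, although lung metastasis 1 stood at 30.6 and primary tumour 2 at 25.3. The mean was 39.4 ± 8.48 in lung metastases and 17.8 ± 5.77 in primary tumours (SD, n = 4 each), a log2 change of 1.13 (SE 0.26, limma adjusted p = 0.0227). Within mice 1 to 4 the log2 difference was 1.36, 0.67, 1.53 and 0.96. The call was lost, at adjusted p of 0.0613 to 0.0659, without lung metastasis 2, primary tumour 1, primary tumour 3 or primary tumour 4, and at 0.0863, 0.0621 and 0.0846 without mouse 1, 3 or 4. In each group the library with the most Grb10, lung metastasis 3 and primary tumour 2, also had the highest summed signal of endothelium markers. These sums were 656 to 2590 in lung metastases against 248 to 832 in primary tumours. The same held for the sums of pericyte and smooth muscle, neutrophil and lung epithelium markers. For lung epithelium the sums were close, at 133 in primary tumour 2 and 129 in primary tumour 3, and Abca3 alone held 98.3 of the former. By mean log2 level primary tumour 3 was the higher, at 1.45 against 1.39 in primary tumour 2. The part of those cells in the Grb10 difference was not tested.

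The RefSeq table of promoters lists a pair of Grb10 starts, both on chromosome 11, minus strand (GRCm38.p6), each shown from 250 bases before to 50 after the start. They are printed because the gene total cannot say which start gave the reads, and the starts differ sharply in base composition. Capitals mark the GC box, GGGCGG or its reverse complement CCGCCC, searched on both strands, with adjoining or overlapping matches run together.
Grb10 upstream start, chr11:12037371-12037670: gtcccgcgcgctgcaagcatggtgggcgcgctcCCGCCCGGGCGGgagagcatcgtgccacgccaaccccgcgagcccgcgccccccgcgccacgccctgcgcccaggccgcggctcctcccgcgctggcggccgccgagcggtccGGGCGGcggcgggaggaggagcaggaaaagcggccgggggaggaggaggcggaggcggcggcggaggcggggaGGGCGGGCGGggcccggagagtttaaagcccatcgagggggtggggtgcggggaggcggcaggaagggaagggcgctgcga
Grb10 downstream start, chr11:12027922-12028221: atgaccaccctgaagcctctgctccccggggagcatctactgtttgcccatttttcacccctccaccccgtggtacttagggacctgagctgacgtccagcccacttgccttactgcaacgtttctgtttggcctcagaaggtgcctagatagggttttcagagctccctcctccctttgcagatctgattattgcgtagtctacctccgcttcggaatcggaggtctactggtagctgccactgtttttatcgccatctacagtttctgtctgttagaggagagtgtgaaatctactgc
The upstream window held 45 CpG dinucleotides and 5 GC boxes at 80.0% G and C, and 98.1% of the 32851 promoters in the table had fewer CpG. The downstream window held 9 CpG and no GC box, against a median of 7 CpG per promoter. A GC box occurred in 35.7% of all promoters, so a match is a description of these letters only.

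Plagl1, also called Zac1, is a paternally expressed zinc finger transcription factor that in mouse regulates other imprinted genes and can stop the cell cycle. Its values were 7.75, 8.11, 10.1 and 9.33 in lung metastases 1 to 4, against 2.86, 2.37, 7.48 and 0.564 in primary tumours 1 to 4. The metastases were close together and all lay above the primary tumours, which spread 13.3-fold, but primary tumour 3 at 7.48 came near lung metastasis 1 at 7.75. The mean was 8.83 ± 1.10 in lung metastases and 3.32 ± 2.95 in primary tumours (SD, n = 4 each), a log2 change of 1.43 (SE 0.45) that did not pass the test (limma adjusted p = 0.0796, unadjusted 0.00938). Without primary tumour 3 the adjusted p was 0.0229, and without mouse 3 it was 0.0223, so 1 library decided the call. Within mice 1 to 4 the log2 difference was 1.18, 1.44, 0.39 and 2.72.

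The listed Plagl1 start lies on chromosome 10, plus strand. It is shown as the other gene whose values were higher in the metastasis of every mouse and that has a promoter entry, with GC boxes in capitals.
Plagl1, chr10:13090582-13090881: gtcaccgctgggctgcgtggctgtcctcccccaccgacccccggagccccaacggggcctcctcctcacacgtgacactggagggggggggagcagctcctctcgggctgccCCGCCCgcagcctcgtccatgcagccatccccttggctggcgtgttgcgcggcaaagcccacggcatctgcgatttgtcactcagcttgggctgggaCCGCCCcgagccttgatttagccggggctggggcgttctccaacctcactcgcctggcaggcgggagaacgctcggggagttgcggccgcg
This window held 26 CpG and 2 GC boxes, and 83.1% of promoters had fewer CpG. The table had entries for 8 of the 10 genes, 15 in all, and none for H19 and Cdkn1c.

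Peg3 is a paternally expressed zinc finger gene studied in maternal care and in cell death. Its values were 2.65, 5.91, 19.5 and 8.65 in lung metastases 1 to 4, against 6.64, 34.0, 2.06 and 10.5 in primary tumours 1 to 4. The groups overlapped over most of their range, and the highest library of each group was lung metastasis 3 and primary tumour 2. The mean was 9.17 ± 7.29 in lung metastases and 13.3 ± 14.2 in primary tumours (SD, n = 4 each; log2 change -0.23, SE 0.71, limma adjusted p = 0.877). The direction turned with single libraries: the log2 change was 0.17 without lung metastasis 1, 0.38 without primary tumour 2, 0.05 without mouse 1 and 0.48 without mouse 2. Within mice 1 to 4 the log2 difference was -1.07, -2.34, 2.74 and -0.25. The same 2 libraries held the highest summed signal of several marker lists, among them pericyte and smooth muscle at 524 of a range of 233 to 524 in lung metastases and 620 of a range of 201 to 620 in primary tumours; the part of those cells was not tested.

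Igf2, the growth factor that signals through the IGF1 and insulin receptors, was low and patchy. Its values were 0.791, 0.961, 7.64 and 0 in lung metastases 1 to 4, against 0, 5.88, 0 and 4.02 in primary tumours 1 to 4. These came from 20, 27, 113 and 0 reads in lung metastases and from 0, 149, 0 and 114 reads in primary tumours. In the 3 libraries with 0 reads, a count of 0 allows a value of up to 0.126 in lung metastasis 4, 0.119 in primary tumour 1 and 0.101 in primary tumour 3, for counting error only. Igf2 was thus read in 3 of 4 lung metastases and in 2 of 4 primary tumours, and the groups overlapped, with a mean of 2.35 ± 3.55 in lung metastases and 2.47 ± 2.96 in primary tumours (SD, n = 4 each). In a fit with no filter on low values the log2 change was -0.05 (limma adjusted p = 0.980 over 15465 genes).

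Igf2r, the maternally expressed receptor that binds Igf2 and carries it to the lysosome, varied 1.32-fold among lung metastases and 1.38-fold among primary tumours. Its values were 229, 263, 200 and 235 in lung metastases 1 to 4, against 280, 323, 234 and 264 in primary tumours 1 to 4. All 4 mice had less in the metastasis, by log2 differences of -0.29, -0.30, -0.23 and -0.17, yet the groups overlapped, with primary tumour 3 at 234 below lung metastases 2 and 4. The mean was 232 ± 25.9 in lung metastases and 275 ± 37.2 in primary tumours (SD, n = 4 each), a log2 change of -0.24 (SE 0.17) that did not pass the test (limma adjusted p = 0.419). Its antisense partner Airn overlaps it by gene span and was counted separately, with means of 3.29 in lung metastases and 3.35 in primary tumours. Whether the exons of Igf2r and Airn share reads was not checked.

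H19, a maternally expressed noncoding RNA that shares enhancers with Igf2, had the highest mean per kb of the 9 genes in both groups and varied 23.3-fold among lung metastases and 8.37-fold among primary tumours. Its values were 375, 576, 24.7 and 314 in lung metastases 1 to 4, against 1048, 199, 1287 and 1668 in primary tumours 1 to 4. Primary tumours 1, 3 and 4 lay above every metastasis, but primary tumour 2 lay below 3 of the 4 metastases. The mean was 322 ± 228 in lung metastases and 1051 ± 622 in primary tumours (SD, n = 4 each), a log2 change of -2.00 (SE 0.94) that did not pass the test (limma adjusted p = 0.236, unadjusted 0.0583). Mice 1, 3 and 4 had less in the metastasis, by log2 differences of -1.48, -5.65 and -2.41, whereas in mouse 2 the difference was 1.53. Leaving out 1 library or 1 mouse at a time gave log2 changes from -3.18 (without mouse 2) to -0.79 (without mouse 3), and -1.0 without lung metastasis 3, all in the same direction and none past the test. The lowest H19 library of each group, lung metastasis 3 and primary tumour 2, also had the lowest summed signal of tumour and mammary epithelium markers, of macrophage markers (640 to 1490 in lung metastases against 1093 to 2431 in primary tumours) and of fibroblast markers (1664 to 2500 in lung metastases against 885 to 2697 in primary tumours). The mean log2 level of the tumour and mammary epithelium list did not follow the same order. It was 5.69 in lung metastasis 3 and 5.66 in lung metastasis 1, and 5.91 in primary tumour 2 and 5.73 in primary tumour 1. The mean log2 level of the fibroblast list was highest in lung metastasis 3, at 5.461 against 5.456 in lung metastasis 1. In primary tumour 2 it was the lowest of its group, at 5.21. That of the macrophage list was lowest in both libraries, at 5.32 in lung metastasis 3 and 5.80 in primary tumour 2. The part of cell composition in the H19 values was not tested.

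**Figure D3:**
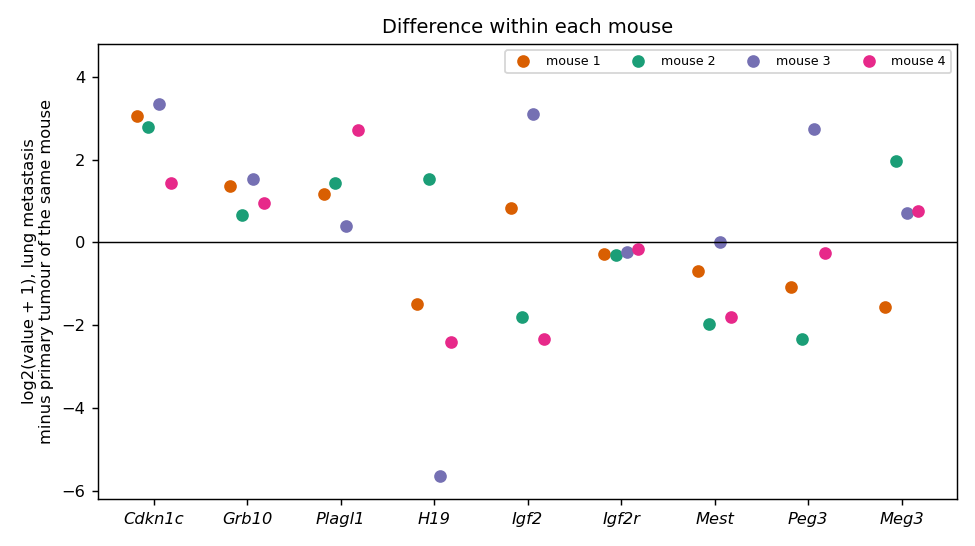
Difference in log2(value + 1) between the lung metastasis and the primary tumour of the same mouse (vertical axis) for each of the 9 genes, 1 point per mouse. Cdkn1c, Grb10 and Plagl1 were above 0 in all 4 mice and Igf2r was below 0 in all 4, whereas H19 was above 0 in mouse 2 only, at 1.53, and Peg3 in mouse 3 only, at 2.74.

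H19 is also the host transcript of a microRNA hairpin, whose arms are printed because they are cut from the RNA counted here. Their sequences are from RefSeq, chromosome 7, minus strand (GRCm38.p6), with the seed, bases 2 to 8, in capitals.
mmu-miR-675-5p, chr7:142577112-142577133: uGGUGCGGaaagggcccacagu
mmu-miR-675-3p, chr7:142577078-142577099: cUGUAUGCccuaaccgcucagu
The arms have different seeds, GGUGCGG and UGUAUGC. The microRNAs themselves were not measured in these libraries, so the H19 values say nothing of their levels.

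Mest, also called Peg1, is a paternally expressed gene for a hydrolase-like protein of the endoplasmic reticulum and a marker of growing fat tissue. Its values were 6.88, 8.04, 14.3 and 4.12 in lung metastases 1 to 4, against 11.7, 34.7, 14.3 and 16.8 in primary tumours 1 to 4. Lung metastasis 3 matched the primary tumour of its own mouse, and the other 3 metastases lay below every primary tumour. The mean was 8.34 ± 4.32 in lung metastases and 19.4 ± 10.4 in primary tumours (SD, n = 4 each), a log2 change of -1.12 (SE 0.40) that did not pass the test (limma adjusted p = 0.126, unadjusted 0.0194). Without lung metastasis 3 the adjusted p was 0.0339, and with library weights it was 0.0211. Mest, Peg3, Igf2 and Grb10 each had their highest metastasis value in lung metastasis 3 and their highest primary tumour value in primary tumour 2. These libraries had the highest summed signal of endothelium, pericyte and smooth muscle, and neutrophil markers of their groups. The part of those cells was not tested. Copg2 overlaps Mest by gene span on the other strand and was counted separately, with means of 58.7 in lung metastases and 61.4 in primary tumours. Whether the exons of Mest and Copg2 share reads was not checked.

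Meg3, a maternally expressed noncoding RNA of the domain that also holds Dlk1, did not pass the test. Its values were 2.25, 8.22, 8.32 and 7.44 in lung metastases 1 to 4, against 8.58, 1.34, 4.72 and 4.02 in primary tumours 1 to 4. Lung metastasis 1 stood far below the other 3, and in mouse 1 alone the primary tumour was the higher. The mean was 6.56 ± 2.90 in lung metastases and 4.66 ± 2.99 in primary tumours (SD, n = 4 each; log2 change 0.47, SE 0.49, limma adjusted p = 0.599). Without mouse 2 the log2 change was -0.03. A transcript on the opposite strand, Gm26906, overlaps Meg3 by gene span. Reads from any stretch they share cannot be told apart, and whether their exons overlap was not checked.

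The main Meg3 start lies on chromosome 12, plus strand. It is printed because it holds a full cyclic AMP response element, TGACGTCA, as the Peg3 start also does, and TATAAA matches; these are in capitals, both strands searched, with overlapping matches run together.
Meg3, chr12:109540746-109541045: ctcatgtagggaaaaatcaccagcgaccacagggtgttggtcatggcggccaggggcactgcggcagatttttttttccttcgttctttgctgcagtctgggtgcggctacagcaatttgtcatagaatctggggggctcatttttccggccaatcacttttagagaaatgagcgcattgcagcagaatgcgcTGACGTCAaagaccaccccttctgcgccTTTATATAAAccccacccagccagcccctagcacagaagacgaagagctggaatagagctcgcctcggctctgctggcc
The element occurred in 1.79% of the 32851 promoters and TATAAA in 13.6%. The window held 13 CpG, as did that of Peg3.

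**Figure D4:**
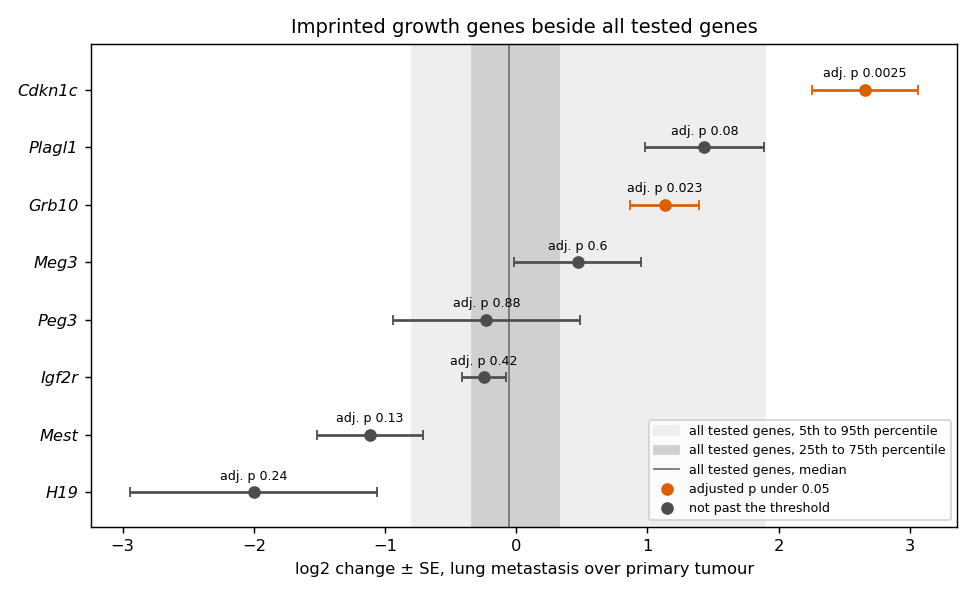
Log2 change of the 8 tested genes (horizontal axis, lung metastasis over primary tumour, on the log2(value + 1) scale) with the standard error as bars and, in grey, the median and percentile bands of all tested genes. Cdkn1c at 2.66 and Grb10 at 1.13 passed the test, Plagl1 at 1.43 and Mest at -1.12 did not, and H19 at -2.00 had the widest bar, with an SE of 0.94.

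Levels were compared between genes only after dividing by the exon length of the gene in GENCODE M21 (GRCm38), which understates genes with many isoforms. In lung metastases the order of mean value per kb was H19 at 131, Igf2r at 24.9, Cdkn1c at 6.39, Grb10 at 4.34, Mest at 2.11, Plagl1 at 1.13, Peg3 at 0.688, Igf2 at 0.410 and Meg3 at 0.362. In this order the values of neighbours overlapped between libraries, except for Igf2r and Cdkn1c. In primary tumours the order was H19 at 427, Igf2r at 29.6, Mest at 4.91, Grb10 at 1.96, Peg3 at 0.998, Cdkn1c at 0.489, Igf2 at 0.432, Plagl1 at 0.424 and Meg3 at 0.258. There H19, Igf2r, Mest and Grb10 did not overlap from one to the next, and neighbours from Grb10 downward overlapped. Among 14944 genes with a length, H19 ranked number 349 in lung metastases and number 85 in primary tumours, and Cdkn1c ranked number 7052 in lung metastases and number 12701 in primary tumours.

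Profiles over the 8 libraries were compared by the root mean square difference in log2(value + 1) after centring, among 11563 genes with a mean of at least 5. The nearest genes to Cdkn1c were Ptprg at 0.190 and Bmp4 at 0.255. Nearest to Grb10 were Sparcl1 at 0.0980 and Ncoa4 at 0.188, and nearest to Plagl1 were Adamts5 at 0.450 and Mmp23 at 0.452. H19 had no close neighbour, with Pitx1 at 0.663 and Pcyt1b at 0.707; Pitx1 was at 0.0676 in lung metastasis 3, the library with the least H19. Igf2r lay nearest to Tbc1d5 at 0.0517 and Fpgs at 0.0686, Mest to Plekhg5 at 0.297 and Fgfr1 at 0.301, Meg3 to Nmnat2 at 0.345 and Zfp605 at 0.367, and Peg3 to Dchs1 at 0.615 and Tle6 at 0.630. These are descriptions over 8 libraries that differ in depth and in the marker signal given above.

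Among the other imprinted genes on 2 lists, a transporter, a phospholipid ATPase, a sarcoglycan and necdin rose, and the rest did not pass limma. Of 12 tested paternally expressed genes on a list of 25, 3 rose, 0 fell and 9 did not pass, with a median log2 change of -0.04. At an unadjusted p under 0.05 in limma 5 were higher and 0 lower. Of the alternatives, edgeR called 4 higher and 0 lower, and DESeq2 and library weights each called 5 higher and 0 lower. Over all tested genes limma called 1279 (1005 higher), edgeR 1050 (843 higher), DESeq2 1985 (1468 higher) and library weights 2283 (1536 higher). DESeq2 and library weights thus called more genes over the whole data too, which also bears on the list counts below. Slc38a4, an amino acid transporter, averaged 7.06 ± 3.96 in lung metastases and 0.105 ± 0.137 in primary tumours (SD, n = 4 each; log2 change 2.74, limma adjusted p = 0.00146). Ndn, encoding necdin, which restrains cell division in neurons, averaged 7.33 ± 2.00 in lung metastases and 1.11 ± 0.611 in primary tumours (SD, n = 4 each; log2 change 2.00, limma adjusted p = 0.00437). The means of both in primary tumours were near or below a value of 1, as was that of Cdkn1c. Slc38a4 was at 0.303 or less in every primary tumour, so it met the filter through the metastases alone. Cdkn1c reached a value of 1 in 6 libraries. With no filter on low values the limma adjusted p was 0.00138 for Slc38a4 and 0.00251 for Cdkn1c. Sgce, a sarcoglycan, averaged 17.6 ± 8.52 in lung metastases and 2.29 ± 1.33 in primary tumours (SD, n = 4 each; log2 change 2.53, limma adjusted p = 0.00553), and Inpp5f, a phosphoinositide phosphatase and the most abundant gene of the list that did not pass, averaged 40.4 ± 12.5 in lung metastases and 47.3 ± 7.36 in primary tumours (SD, n = 4 each; log2 change -0.26, limma adjusted p = 0.558). Of 17 tested maternally expressed genes on a list of 25, 1 rose, 0 fell and 16 did not pass, with a median log2 change of -0.09. At an unadjusted p under 0.05 in limma 1 was higher and 1 lower; edgeR and DESeq2 each called 1 higher and 0 lower, and library weights 1 higher and 1 lower. The 1 that rose was Atp10a, a phospholipid-transporting ATPase, which averaged 22.8 ± 1.46 in lung metastases and 10.0 ± 0.659 in primary tumours (SD, n = 4 each; log2 change 1.11, limma adjusted p = 0.00624); its adjusted p was 0.0584 without mouse 1 and 0.0542 without mouse 2. Cd81, a tetraspanin, was the most abundant of those that did not pass, with 181 ± 23.5 in lung metastases and 206 ± 17.3 in primary tumours (SD, n = 4 each; log2 change -0.19, limma adjusted p = 0.504).

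Of 20 tested IGF and insulin signalling partners, 3 rose, 0 fell and 17 did not pass, with a median log2 change of -0.33. At an unadjusted p under 0.05 in limma 4 were higher and 3 lower; edgeR called 2 higher and 0 lower, DESeq2 4 higher and 2 lower, and library weights 4 higher and 1 lower. All 3 were IGF-binding proteins, secreted carriers that hold IGFs away from or near their receptors. Igfbp2 averaged 27.5 ± 14.3 in lung metastases and 0.744 ± 0.863 in primary tumours (SD, n = 4 each; log2 change 4.04, limma adjusted p = 0.000485). Igfbp6, which prefers Igf2 as its ligand, averaged 95.2 ± 66.1 in lung metastases and 4.70 ± 1.99 in primary tumours (SD, n = 4 each; log2 change 3.91, limma adjusted p = 0.000401). Igfbp5 averaged 212 ± 231 in lung metastases and 19.6 ± 18.4 in primary tumours (SD, n = 4 each; log2 change 3.27, limma adjusted p = 0.0415), and lost the call with edgeR at 0.0658, without lung metastasis 2 or 3 at 0.0983 and 0.0510, without primary tumour 1, 2 or 4 at 0.0820, 0.0858 and 0.115, and without mouse 1, 2 or 4 at 0.0713, 0.176 and 0.121. Igfbp4, the most abundant gene of the list that did not pass, averaged 1425 ± 547 in lung metastases and 2583 ± 558 in primary tumours (SD, n = 4 each; log2 change -0.93, limma adjusted p = 0.154); with DESeq2 its adjusted p was 0.0495. The other 2 tested binding proteins, given after their values were seen, also did not pass and had negative log2 changes. Igfbp3, the main IGF carrier in blood, averaged 35.5 ± 14.2 in lung metastases and 276 ± 345 in primary tumours (SD, n = 4 each; log2 change -2.28, limma adjusted p = 0.0627), with every metastasis below every primary tumour; it passed with DESeq2 at 0.000365 and with library weights at 0.0288. Igfbp7, a matrix-associated relative, averaged 206 ± 35.3 in lung metastases and 347 ± 198 in primary tumours (SD, n = 4 each; log2 change -0.61, limma adjusted p = 0.309).

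A list drawn up for imprint maintenance, which also held Tet1, Tet2, Tet3 and Rlim, had 16 tested genes. Of these, 0 rose and 0 fell by limma, with a median log2 change of 0.15. At an unadjusted p under 0.05, 1 was higher and 1 lower; edgeR called 0 in either direction, DESeq2 called 1 higher and 0 lower, and library weights 1 higher and 1 lower. The most abundant was Trim28, a corepressor that protects imprints from demethylation, with 276 ± 45.7 in lung metastases and 375 ± 13.8 in primary tumours (SD, n = 4 each; log2 change -0.46, limma adjusted p = 0.135); with library weights its adjusted p was 0.0296.

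Among 14 tested relatives of the 10 genes, 2 rose, 1 fell and 11 did not pass, with a median log2 change of 0.05. DESeq2 and library weights each called 3 higher and 1 lower, and edgeR 2 higher and 1 lower. Both that rose by limma are inhibitors of cyclin-dependent kinases, as is Cdkn1c, but 3 other tested inhibitors, given after their values were seen, did not pass. Cdkn1a had a log2 change of 1.14 (limma adjusted p = 0.0656), Cdkn1b of 0.27 (0.421) and Cdkn2c of -0.81 (0.249), the last with 95.2 ± 43.8 in lung metastases and 151 ± 39.0 in primary tumours (SD, n = 4 each). Cdkn1a passed with DESeq2 at 0.0169, with library weights at 0.0106, without lung metastasis 4 at 0.0494 and without primary tumour 2 at 0.0344. Cdkn2b averaged 9.32 ± 3.63 in lung metastases and 1.22 ± 0.274 in primary tumours (SD, n = 4 each; log2 change 2.15, limma adjusted p = 0.00235). Cdkn2d averaged 7.90 ± 2.60 in lung metastases and 2.45 ± 0.577 in primary tumours (SD, n = 4 each; log2 change 1.33, limma adjusted p = 0.0208), and lost the call with the mouse as a block at 0.0548, without lung metastasis 1 at 0.0685, without primary tumour 1, 2 or 3 at 0.0568, 0.0567 and 0.0614, and without mouse 1, 2 or 3 at 0.156, 0.0822 and 0.0710. Plag1, a zinc finger gene of the same family as Plagl1, fell, with 2.63 ± 0.961 in lung metastases and 7.48 ± 1.41 in primary tumours (SD, n = 4 each; log2 change -1.24, limma adjusted p = 0.0230). It lost the call with the mouse as a block at 0.0596, without lung metastasis 2 at 0.0616, without primary tumour 1, 2, 3 or 4 at 0.0568, 0.0668, 0.0711 and 0.0527, and without mouse 1, 2, 3 or 4 at 0.0669, 0.143, 0.0686 and 0.0773. Pcna, the sliding clamp of DNA replication and the most abundant of those that did not pass, averaged 197 ± 81.3 in lung metastases and 183 ± 28.1 in primary tumours (SD, n = 4 each; log2 change -0.02, limma adjusted p = 0.979), a direction that turned with the scaling (0.02 with median-ratio scaling).

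**Figure D5:**
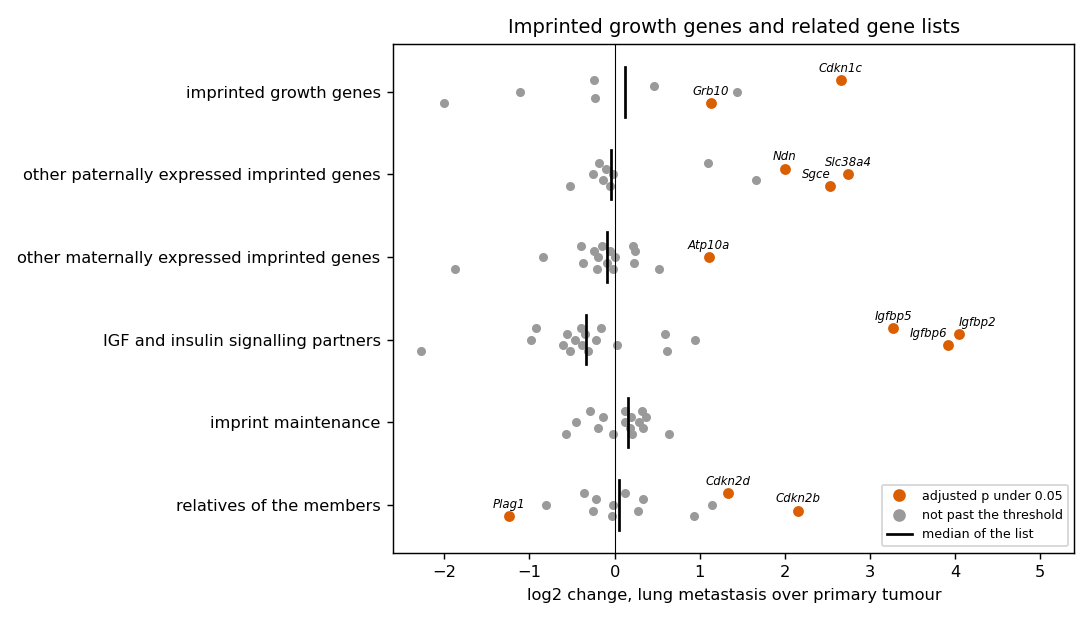
Log2 change of every tested gene of the 10 imprinted growth genes and of 5 related lists (horizontal axis, lung metastasis over primary tumour), with genes past the test in colour and named, and the median of each list as a bar. The list medians lay between -0.33 and 0.15, close to 0, while the named genes except Plag1 lay to the right.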

How the data were processed

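RNA was extracted from bulk tissue with an RNeasy kit and sequenced from TruSeq libraries, per the labels' protocols. The genome build was mm9, per the submitters' processing notes; which aligner, counter and gene models were used is not given in the sources used here. The authors deposited a table named for CPM whose values are a signal: gene reads divided by a scaled library size, near a level of 1000000. In the 8 BC columns 100% of values came out as whole reads, to within 0.05 reads, once divided by what 1 read is worth, so reads could be recovered. The 12 other columns of the table did not line up with its gene column and were not used.

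The test was limma 3.58.1 (R 4.3.3) with an intensity trend on log2(value + 1), group means only, over genes at 1 or more in at least 4 of the 8 libraries. As an alternative, edgeR 4.0.16 (quasi-likelihood) called 1050 genes on the recovered reads against 1279 with limma. The script was tested on simulated data. Metastasis and primary tumour that share a number in their titles were taken to come from the same mouse. After group means were removed, their correlation was 0.0962, -0.151, 0.035 and 0.00655 in mice 1 to 4. Only in mouse 1 did the metastasis correlate most with the primary tumour of its own number. Named genes were all members, of each list up to 5 called genes with the smallest p and the most abundant gene not called (the rule had allowed up to 3 of these), and the 2 genes nearest each member in profile. The members and lists were chosen with earlier results of these data known. A log2 ratio of Igf2 to H19 or Igf2r, and of Dlk1 to Meg3, was planned and not run, since Igf2 had 0 reads in 3 libraries and Dlk1 was not analysed here. Reads carry no molecular identifiers, so limits from counts of 0 (3 reads) cover counting error only.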

Additional observations from a re-analysis of the deposited data

Results flagged for a closer look

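Within the 4 libraries of a group, 5 of 64 sets of values for the named genes had a library far from the other 3, on the log2(value + 1) scale; chance gives about 1 in 20. Meg3 was at 1.70 in lung metastasis 1, a deposited value of 2.25, below the other 3 metastases. Sgce was at 0.40 in primary tumour 1 (deposited value 0.318), below the other primary tumours. Inpp5f was at 5.22 in primary tumour 2 (deposited value 36.2), below the other primary tumours. Phlda2 was at 4.54 in primary tumour 3 (deposited value 22.3), above the other primary tumours. Cdkn1b was at 7.78 in lung metastasis 3 (deposited value 219), above the other metastases.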

How the results depend on the processing

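The calls of Cdkn1c held in all alternatives, with adjusted p from 1.96e-11 to 0.0435, and those of Grb10 ranged from 0.00165 to 0.0863. With mouse as a replicate block, 176 genes were lower in the metastases against 274 without it, and 1112 were called in all; the block ended the calls of Cdkn2d and Plag1 and changed no other call among the members and the list genes named with a test. The count of changed genes, 1279, was 1985 with DESeq2 (517 lower) and 2283 with library weights (1536 higher, 747 lower). Without 1 library or 1 mouse it ran from 448 to 1603 (402 to 1237 higher, 46 to 431 lower). It was more than 1.5 times below 1279 without primary tumour 1, 3 or 4 or mouse 1, 2 or 4. The count was 1208 without mouse 3, and it rose to 1551 without lung metastasis 3 and to 1603 without lung metastasis 4. The sign of small changes turned: Pcna was 0.0184 with median-ratio scaling, 0.111 with edgeR, 0.129 with DESeq2 and 0.302 with library weights, and Slc22a18 was 0.0253 with edgeR and 0.0566 with DESeq2. Without 1 library or mouse, log2 changes ran from -1.22 to 0.475 for Peg3, from -0.0349 to 1.14 for Meg3, from -0.261 to 0.365 for Pcna and from -0.707 to 0.325 for Slc22a18. The cause of these shifts was not tested. The fits without both libraries of a mouse were chosen after seeing the data. In primary tumours 1 read was worth 0.0337 to 0.0397, and Cdkn1c had 18 to 38 reads there. Igf2 had 0 reads in primary tumour 3, the deepest library at 28995834 reads. It had 113 reads in lung metastasis 3, the shallowest at 15447918. The part of depth in these low values was not tested.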
